A study of Mus musculus with 5 samples.

Results

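The tumour necrosis factor (TNF) superfamily was followed across the livers of mice treated with CSF1-Fc, and 42 of the 18820 genes measured by a row with 1 gene symbol belonged to it. Its members were found by symbol, as the numbered *Tnfsf* ligands and *Tnfrsf* receptors together with *Tnf*, *Lta*, *Ltb*, *Ltbr*, *Fas*, *Fasl*, *Cd40*, *Cd40lg*, *Cd27*, *Cd70*, *Eda*, *Edar* and *Ngfr*, and comprised 16 ligands and 26 receptors. The CSF1-Fc group was 3 adult C57BL/6 mice, and the PBS group was 2 adult C57BL/6 mice that received phosphate-buffered saline. CSF1-Fc joins the active part of pig macrophage colony-stimulating factor to a hinge-to-CH3 stretch of pig IgG1a, and its dose was 1 mg/kg. Injections were subcutaneous and daily for 4 days in both groups, and livers were taken on day 5. Total RNA of each liver was hybridized to 1 Affymetrix Mouse Gene 1.1 ST array, so that every value below is a log2 normalized intensity of whole liver unless it is called a difference. Each gene was read from its brightest row with 1 symbol. Only *Tnfsf13b* had a second row, and 1 row that carries *Tnfsfm13*, *Tnfsf13* and *Tnfsf12* together was not used, so no value is given for the ligands TWEAK and APRIL.

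Ligands of this family are trimeric proteins, most of them made on the cell surface and some shed from it by proteases. Their receptors fall into those with a cytoplasmic death domain, which can start caspase-driven or necroptotic death, those that bind TRAF adaptors and activate NF-kappaB and MAP kinases, and decoys that bind ligand without signalling. In the liver the family is best known for the sensitivity of hepatocytes to Fas ligand and TNF, for the part of TNF in the first steps of regeneration, and for TNF release by Kupffer cells, the resident macrophages of the sinusoids.

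Most members that were higher in the CSF1-Fc livers were receptors. By limma with Benjamini-Hochberg adjustment over 35556 rows (adjusted p under 0.05), 11 of the 42 members rose and 0 fell, which is 26.2% of members higher, against 8.34% of all genes higher and 3.95% lower. The members that rose were 10 of 26 receptors (38.5%) and 1 of 16 ligands (6.25%), namely *Tnf*; the difference between these shares was not tested. At an unadjusted p under 0.05 the counts were 14 members higher and 3 lower, beside 13.2% of all genes higher and 14.5% lower. The median difference was 0.10 over the members, 0.35 over the receptors and 0.01 over the ligands, and it was -0.08 over all genes. All 3 CSF1-Fc livers lay above both PBS livers in 16 members and below both in 8, while the groups overlapped in 18; over all genes, 18.2% lay wholly above and 29.3% wholly below.

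**Figure D1:**
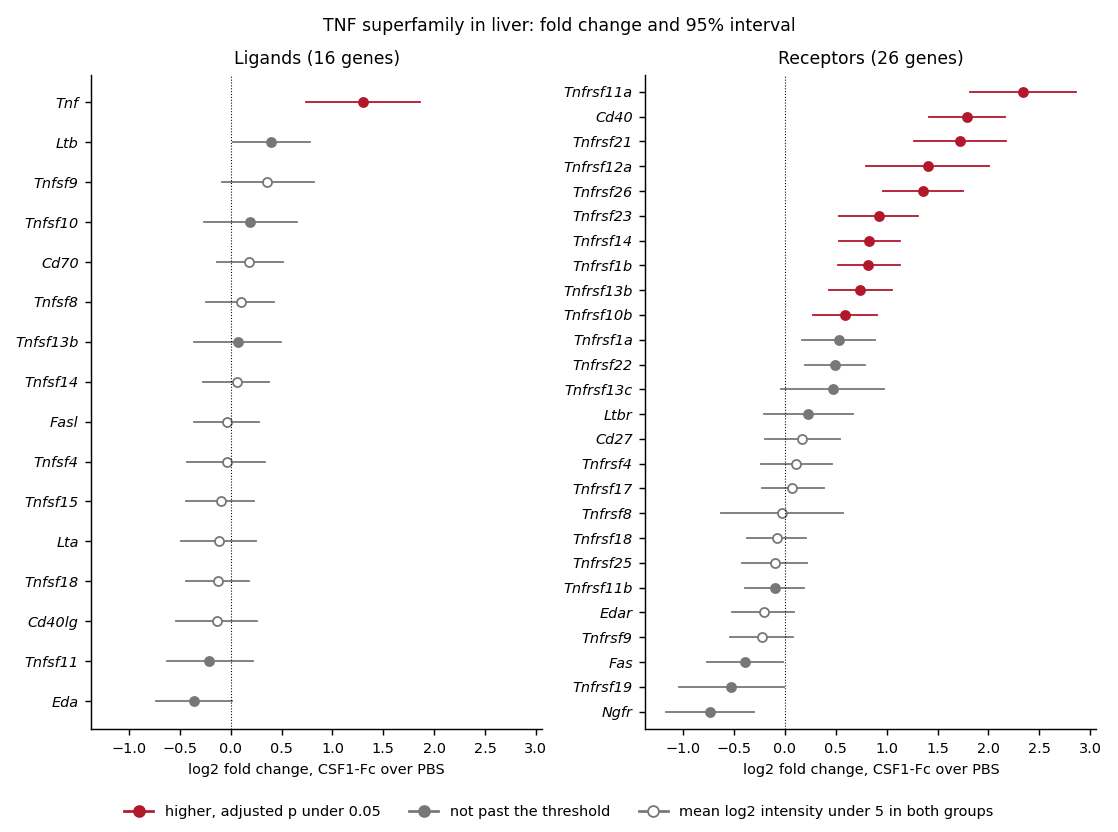
Log2 fold change of the 16 ligands and 26 receptors, CSF1-Fc over PBS (horizontal axis), with 95% intervals as lines. Filled red points are the 11 members with an adjusted p under 0.05, grey points did not pass, and open points are the 18 members with a mean log2 intensity under 5 in both groups, none of which passed.

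Many members had a low intensity, at a share close to that of all genes. A mean log2 intensity under 5 (an intensity of 32, near the median of each array) was called dim. Both group means were dim for 18 of the 42 members, 10 of them ligands, and for 41.1% of all genes. Differences of these 18 ran between -0.23 and 0.36, and none passed the threshold, as against 0.697% higher and 0.258% lower among all genes as dim. Of the 11 members that rose, 5 (*Cd40*, *Tnfrsf10b*, *Tnfrsf13b*, *Tnfrsf23* and *Tnfrsf26*) had a PBS mean under 5, so that the size of their differences rests on a PBS value in this range. The value of a dim member on such an array may be mostly background, and a change in it could be missed. In whole liver, fewer cells of a type and less RNA per cell cannot be told apart, and neither can more cells and more RNA per cell.

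Promoters are shown for 4 of the members that rose: *Tnf* and *Tnfrsf1b*, the pair of ligand and receptor that both rose, *Tnfrsf11a*, the member with the largest difference, and *Tnfrsf14*, whose ligand is one of the dim members. The windows are the 250 bases before the start in the RefSeq annotation of GRCm38.p6, 5′ to 3′ on the gene's strand, and capitals mark a match to one of the motifs named after them, in either orientation.
Tnf, chr17:35202008-35202257, minus strand: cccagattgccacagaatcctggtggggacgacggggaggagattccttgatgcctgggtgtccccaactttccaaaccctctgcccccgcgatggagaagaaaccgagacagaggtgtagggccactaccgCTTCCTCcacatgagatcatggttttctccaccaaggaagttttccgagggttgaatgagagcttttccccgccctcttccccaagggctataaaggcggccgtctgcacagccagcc
Tnfrsf1b, chr4:145246871-145247120, minus strand: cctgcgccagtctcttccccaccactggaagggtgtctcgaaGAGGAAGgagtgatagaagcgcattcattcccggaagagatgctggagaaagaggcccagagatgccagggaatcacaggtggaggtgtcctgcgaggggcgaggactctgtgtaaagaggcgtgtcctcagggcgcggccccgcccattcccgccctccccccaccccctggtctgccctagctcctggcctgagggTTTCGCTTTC
Tnfrsf14, chr4:154928078-154928327, minus strand: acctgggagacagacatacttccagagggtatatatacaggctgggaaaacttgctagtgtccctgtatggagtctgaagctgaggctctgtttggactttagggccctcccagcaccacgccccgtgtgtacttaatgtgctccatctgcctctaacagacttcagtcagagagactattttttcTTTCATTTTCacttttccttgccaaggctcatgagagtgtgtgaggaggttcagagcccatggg
Tnfrsf11a, chr1:105780473-105780722, plus strand: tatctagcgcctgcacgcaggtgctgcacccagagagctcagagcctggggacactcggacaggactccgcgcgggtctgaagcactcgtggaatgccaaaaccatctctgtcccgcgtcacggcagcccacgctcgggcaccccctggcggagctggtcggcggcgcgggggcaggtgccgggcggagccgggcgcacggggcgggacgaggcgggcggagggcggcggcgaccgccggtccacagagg

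The motifs searched on both strands were the PU.1-type letters GAGGAAG (PU.1 is a transcription factor of macrophages and B cells), the interferon-stimulated response element (GAAA, any pair of bases, then GAAA), the AP-1 site TGANTCA and the NF-kappaB consensus. The PU.1-type letters began 118 bases before the start of *Tnf* and 208 bases before that of *Tnfrsf1b*. The interferon-type letters began 10 bases before the start of *Tnfrsf1b* and 64 bases before that of *Tnfrsf14*, and none of the printed matches overlapped another. A window was at hand for 33 members, 8 of them among the 11 that rose. Over these 8, the PU.1-type letters were in 2, the interferon-type letters in 2 (*Tnfrsf14* and *Tnfrsf1b*), and the AP-1 and NF-kappaB letters in 0. The windows of *Tnfrsf12a*, *Tnfrsf13b*, *Tnfrsf21* and *Tnfrsf23*, which also rose, held no match and are not printed, so the printed windows include every one with a match among the 8. Over the other 25 members, the PU.1-type letters were in 3, the interferon-type letters in 2, the AP-1 letters in 5 and the NF-kappaB letters in 4 (*Ltb*, *Tnfrsf25*, *Tnfrsf8* and *Tnfrsf9*). Of all 27025 genes with a window of this length, 12% held the PU.1-type, 3.46% the interferon-type, 7.82% the AP-1 and 8.23% the NF-kappaB letters (10.6%, 2.98%, 6.75% and 7.25% of the 32851 windows). The absence of a match says only that the letters are not in the window.

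TNF itself, the inflammatory cytokine that gives the family its name, was the only ligand that rose. *Tnf* measured 6.64, 6.32 and 6.01 in the CSF1-Fc livers, against 5.25 and 4.79 in the PBS livers. Every CSF1-Fc liver was above both PBS livers, and the mean was 6.32 ± 0.31 in the CSF1-Fc group (SD, n = 3) and 5.02 ± 0.33 in the PBS group (SD, n = 2). The difference of 1.30 (SE 0.23, a 2.46-fold higher intensity) had an adjusted p of 0.0203. This p lay between 0.00209 and 0.182 over 15 alternatives, and was 0.0515 without PBS mouse 1, 0.152 without PBS mouse 2 and 0.0643 without CSF1-Fc mouse 1.

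Both TNF receptors were well above the dim range in every liver, and 1 of them rose. *Tnfrsf1b*, the receptor without a death domain that is found mainly on leukocytes and endothelium, measured 8.86, 8.78 and 8.83 in the CSF1-Fc livers, against 7.92 and 8.08 in the PBS livers, with no overlap. It rose by 0.82 (SE 0.13, 1.77-fold, adjusted p = 0.0115). *Tnfrsf1a*, the widely expressed receptor that carries the death domain, measured 10.27, 10.23 and 10.06 in the CSF1-Fc livers and 9.80 and 9.52 in the PBS livers. Its groups did not overlap either, but its difference of 0.53 (95% interval 0.17 to 0.89) did not pass (adjusted p = 0.0893). The *Tnfrsf1b* call was lost without PBS mouse 1 (adjusted p = 0.108), PBS mouse 2 (0.0746) or CSF1-Fc mouse 1 (0.0619), within a range of 0.00172 to 0.108 over 15 alternatives. For *Tnfrsf1a* the range was 0.0189 to 0.47, and 3 of 15 alternatives passed.

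The lymphotoxins, ligands that shape lymphoid tissue and use the TNF receptors or the lymphotoxin beta receptor, lie beside *Tnf* on chromosome 17 in the order *Ltb*, *Tnf*, *Lta*. Neither passed the threshold. *Lta* measured 3.37, 3.54 and 3.16 in the CSF1-Fc livers, against 3.53 and 3.42 in the PBS livers, a difference of -0.12 (95% interval -0.49 to 0.25) at a dim row with overlapping groups. *Ltb* measured 5.01, 5.35 and 4.99 in the CSF1-Fc livers and 4.72 in each PBS liver, so that its groups stood apart, with a difference of 0.40 (95% interval 0.02 to 0.78, adjusted p = 0.196). *Ltbr*, the receptor of lymphotoxin beta and LIGHT on stromal and parenchymal cells, gave 0.23 (95% interval -0.21 to 0.67) with overlapping groups.

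LIGHT (*Tnfsf14*) shares the lymphotoxin beta receptor and also binds HVEM (*Tnfrsf14*), a receptor of lymphocytes and myeloid cells. *Tnfrsf14* measured 8.41, 8.54 and 8.55 in the CSF1-Fc livers, against 7.70 and 7.64 in the PBS livers. The replicates lay close together in both groups, and the rise of 0.83 (SE 0.13, 1.78-fold) had an adjusted p of 0.011. Its ligand did not pass: *Tnfsf14* measured 4.35, 4.40 and 4.16 in the CSF1-Fc livers and 4.22 and 4.28 in the PBS livers, a difference of 0.06 (95% interval -0.27 to 0.38). The call of *Tnfrsf14* was lost without PBS mouse 1 (adjusted p = 0.0809) or PBS mouse 2 (0.112), within a range of 0.00162 to 0.112 over 15 alternatives.

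Fas and its ligand, the pair most closely tied to hepatocyte death, were not among the members that passed. *Fas* measured 7.28, 7.05 and 7.08 in the CSF1-Fc livers, against 7.68 and 7.38 in the PBS livers. All 3 CSF1-Fc values were under both PBS values, with a difference of -0.39 (95% interval -0.77 to -0.02, adjusted p = 0.19). *Fasl*, which cytotoxic lymphocytes carry, was dim in every liver, at 3.61, 3.56 and 3.68 in the CSF1-Fc group and 3.56 and 3.75 in the PBS group.

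For TRAIL (*Tnfsf10*), a ligand that can kill transformed or infected cells, 1 receptor with a death domain and 1 without rose, and the ligand row did not pass. *Tnfsf10* measured 6.61, 6.41 and 6.97 in the CSF1-Fc livers, against 6.51 and 6.43 in the PBS livers, with overlapping groups and a difference of 0.19 (95% interval -0.26 to 0.65). *Tnfrsf10b*, the TRAIL receptor with a death domain in mice, measured 5.54, 5.43 and 5.37 in the CSF1-Fc livers and 4.89 and 4.83 in the PBS livers. It rose by 0.59 (SE 0.13, 1.51-fold, adjusted p = 0.0387), the smallest rise among the 11 members. The call was also the least stable: its adjusted p ran between 0.00666 and 0.254 over 15 alternatives, and was 0.177 without PBS mouse 1, 0.254 without PBS mouse 2, 0.149 without CSF1-Fc mouse 1 and 0.0706 without CSF1-Fc mouse 2.

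*Tnfrsf26*, *Tnfrsf22* and *Tnfrsf23* are neighbours on chromosome 7 with no protein-coding gene between them, and in mice *Tnfrsf22* and *Tnfrsf23* encode TRAIL-binding receptors that lack a death domain. The sequences of these 3 genes are alike, so probes of one row may also read another. *Tnfrsf26* measured 6.07, 6.50 and 6.22 in the CSF1-Fc livers, against 4.88 and 4.93 in the PBS livers, and rose by 1.36 (SE 0.16, 2.56-fold, adjusted p = 0.00408). *Tnfrsf23* measured 4.79, 5.22 and 5.04 in the CSF1-Fc livers and 4.09 and 4.11 in the PBS livers, and rose by 0.92 (SE 0.16, 1.89-fold, adjusted p = 0.0192). *Tnfrsf22*, between them, measured 5.59, 5.57 and 5.67 in the CSF1-Fc livers and 5.11 in each PBS liver. Its groups stood well apart, but its difference of 0.49 (95% interval 0.20 to 0.79) did not pass (adjusted p = 0.0594; range 0.0167 to 0.301 over 15 alternatives, 5 of which passed). The call of *Tnfrsf23* was lost without PBS mouse 1 (adjusted p = 0.122) or PBS mouse 2 (0.135), within a range of 0.00268 to 0.135 over 14 alternatives.

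RANK (*Tnfrsf11a*), the receptor through which RANK ligand drives osteoclast formation and which other cells of the macrophage lineage also carry, had the largest difference of the family. *Tnfrsf11a* measured 7.51, 7.22 and 7.91 in the CSF1-Fc livers, against 5.23 and 5.18 in the PBS livers. The lowest CSF1-Fc value was 1.99 above the highest PBS value, the widest gap among the 11 members. The rise was 2.34 (SE 0.21, 95% interval 1.82 to 2.86, 5.06-fold), with an adjusted p of 0.00132. Neither the ligand nor the soluble decoy of the same axis passed. RANK ligand (*Tnfsf11*) measured 5.25, 5.12 and 4.76 in the CSF1-Fc livers and 5.28 and 5.22 in the PBS livers, a difference of -0.21 (95% interval -0.63 to 0.22). Osteoprotegerin (*Tnfrsf11b*), the secreted receptor that sequesters RANK ligand, measured 5.75, 5.73 and 5.79 in the CSF1-Fc livers and 5.86 in each PBS liver, a difference of -0.10 (95% interval -0.39 to 0.19).

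*Tnfrsf12a*, the TWEAK receptor, is induced in injured tissue and in progenitor cells of the liver. It measured 9.15, 9.05 and 8.40 in the CSF1-Fc livers, against 7.59 and 7.32 in the PBS livers. CSF1-Fc mouse 3 was the lowest of its group but still above both PBS livers. The rise of 1.41 (SE 0.25, 2.65-fold) had an adjusted p of 0.02, with a range of 0.00193 to 0.187 over 15 alternatives. The call was lost without PBS mouse 1 (adjusted p = 0.0821), PBS mouse 2 (0.152) or CSF1-Fc mouse 1 (0.0733).

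Of the B cell branch, 1 of 3 receptors rose. *Tnfrsf13b* (TACI), which binds both BAFF and APRIL, measured 5.64, 5.59 and 5.75 in the CSF1-Fc livers, against 4.98 and 4.87 in the PBS livers. It rose by 0.74 (SE 0.13, 1.67-fold, adjusted p = 0.0179), with no overlap between groups. *Tnfrsf13c*, the receptor specific to BAFF, measured 5.52, 5.89 and 5.28 in the CSF1-Fc livers and 5.22 and 4.96 in the PBS livers, a difference of 0.47 (95% interval -0.04 to 0.97, adjusted p = 0.247). *Tnfrsf17*, the plasma cell receptor, was dim in both groups with a difference of 0.07. The ligand BAFF (*Tnfsf13b*), made by myeloid cells, measured 5.08, 4.99 and 5.42 in the CSF1-Fc livers and 5.21 and 4.99 in the PBS livers. Its difference of 0.07 (95% interval -0.36 to 0.49) came with overlapping groups, and its second, dimmer row gave -0.21 (adjusted p = 0.386), so neither row passed. The *Tnfrsf13b* call was lost without PBS mouse 1 (adjusted p = 0.103), PBS mouse 2 (0.165) or CSF1-Fc mouse 1 (0.0797), within a range of 0.00336 to 0.165 over 15 alternatives. Some B cell markers moved as well: *Cd79b* rose by 1.89, *Cd79a* by 1.58 and *Ms4a1* by 1.15. These were 3 of the 10 B and plasma cell markers measured, of which 7 had a positive and 3 a negative difference. The summed intensity of the 10 ran from 921 to 1120 in the CSF1-Fc livers and from 922 to 1000 in the PBS livers. *Sdc1*, the brightest of the 10, weighs most in that sum and hides the others. Its mean was 9.11 in the CSF1-Fc livers and 9.52 in the PBS livers, a difference of -0.41 that did not pass. The part of these markers in the result for *Tnfrsf13b* was not tested.

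*Cd40*, through which T cells activate macrophages, dendritic cells and B cells, had the second largest difference of the family. It measured 6.80, 6.55 and 6.49 in the CSF1-Fc livers, against 4.92 and 4.72 in the PBS livers. The PBS values lie in the dim range. The difference was 1.79 (SE 0.15, 95% interval 1.42 to 2.16, 3.47-fold) and the adjusted p 0.00101, the lowest in the family. Its ligand *Cd40lg*, a protein of activated helper T cells, measured 3.98, 3.97 and 3.83 in the CSF1-Fc livers and 3.86 and 4.28 in the PBS livers, which is dim in both groups. The difference of -0.14 (95% interval -0.54 to 0.26) turned to 0.07 without PBS mouse 2.

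The other costimulatory pairs of lymphocytes gave no call, and all of their rows were dim. These are *Cd70* with *Cd27*, *Tnfsf4* (OX40 ligand) with *Tnfrsf4*, *Tnfsf8* (CD30 ligand) with *Tnfrsf8*, *Tnfsf9* with *Tnfrsf9*, *Tnfsf18* (GITR ligand) with *Tnfrsf18*, and *Tnfsf15* with *Tnfrsf25*. The ligand and receptor of a pair differed by 0.18 and 0.17 for *Cd70* and *Cd27*, by -0.04 and 0.11 for *Tnfsf4* and *Tnfrsf4*, and by 0.10 and -0.03 for *Tnfsf8* and *Tnfrsf8*. For *Tnfsf9* and *Tnfrsf9* the differences were 0.36 and -0.23, for *Tnfsf18* and *Tnfrsf18* -0.13 and -0.08, and for *Tnfsf15* and *Tnfrsf25* -0.10 and -0.10. T cell markers, whose cells carry most of these receptors, were dim in both groups for 7 of 10 genes, and 1 of the 10 rose (*Cd3g*, by 1.45). No difference was detected in these pairs, which does not show that there was none.

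**Figure D2:**
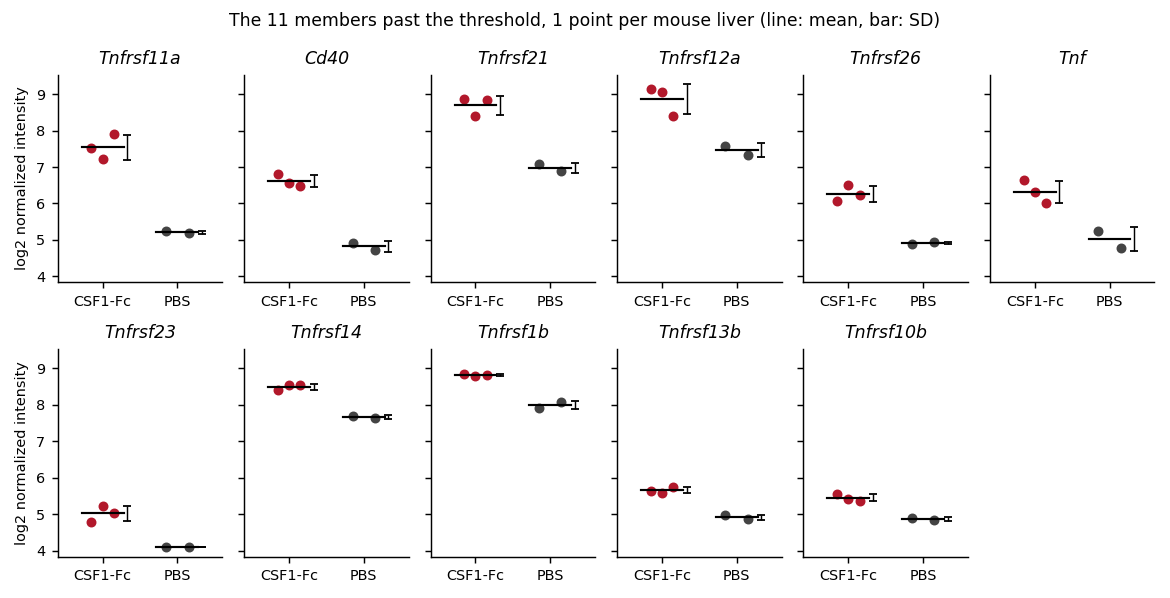
Log2 normalized intensity (vertical axis) of the 11 members that rose, with 1 point per mouse liver, CSF1-Fc left and PBS right in each panel, the group mean as a line and its SD as a bar. In every panel the lowest CSF1-Fc point lies above the highest PBS point, by between 0.48 (*Tnfrsf10b*) and 1.99 (*Tnfrsf11a*).

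The receptors with no partner among the members included a strong rise. *Tnfrsf21*, a death domain receptor also known as DR6 that is studied mostly in neurons and lymphocytes, measured 8.87, 8.40 and 8.84 in the CSF1-Fc livers, against 7.08 and 6.89 in the PBS livers. It rose by 1.72 (SE 0.19, 95% interval 1.27 to 2.17, 3.29-fold), with an adjusted p of 0.00258 and a gap of 1.32 between the groups. *Tnfrsf19*, a receptor of epithelial and stem cells, measured 4.57, 4.85 and 5.27 in the CSF1-Fc livers and 5.45 and 5.39 in the PBS livers. All 3 treated livers were lower, with a difference of -0.53 (95% interval -1.04 to -0.01, adjusted p = 0.209). CSF1-Fc mouse 3 was the nearest to the PBS livers, and without it the difference passed (adjusted p = 0.0488; range 0.0261 to 0.509 over 15 alternatives).

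*Ngfr*, the low-affinity neurotrophin receptor found on stellate cells and nerves in liver, was the member with the most negative difference. It measured 6.55, 6.14 and 6.65 in the CSF1-Fc livers, against 7.16 and 7.20 in the PBS livers. The groups stood apart, and the difference of -0.74 (95% interval -1.17 to -0.30) lay just outside the threshold (adjusted p = 0.0593). The result depended on the setting: its adjusted p ran between 0.0136 and 0.286, 7 of 15 alternatives passed, and it was 0.0472 without CSF1-Fc mouse 3. Stellate cell markers had a median difference of -0.32 over 8 genes, with 1 higher (*Acta2*, 1.99) and 1 lower (*Rgs5*, -0.83). At an unadjusted p under 0.05, 1 of these markers was higher and 4 were lower. The summed intensity of the markers was 1200 to 1370 in the CSF1-Fc livers and 1480 to 1490 in the PBS livers. Their part in the *Ngfr* value was not tested. The ectodysplasin pair, which directs the development of hair and glands, gave -0.36 for the ligand *Eda* (adjusted p = 0.229) and -0.21 for the receptor *Edar* (adjusted p = 0.382).

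Set side by side as 24 pairs of a ligand and a receptor that are both members, 1 pair had both partners higher (*Tnf* with *Tnfrsf1b*), 1 had the ligand alone (*Tnf* with *Tnfrsf1a*) and 7 had the receptor alone. Those 7 were *Lta* with *Tnfrsf1b*, *Tnfsf14* with *Tnfrsf14*, *Cd40lg* with *Cd40*, *Tnfsf10* with *Tnfrsf10b*, *Tnfsf10* with *Tnfrsf23*, *Tnfsf11* with *Tnfrsf11a*, and *Tnfsf13b* with *Tnfrsf13b*. Neither partner rose in 15 pairs, and no partner fell in any. The pairs share genes and are not independent, and whether a receptor changed more than its ligand was not tested.

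**Figure D3:**
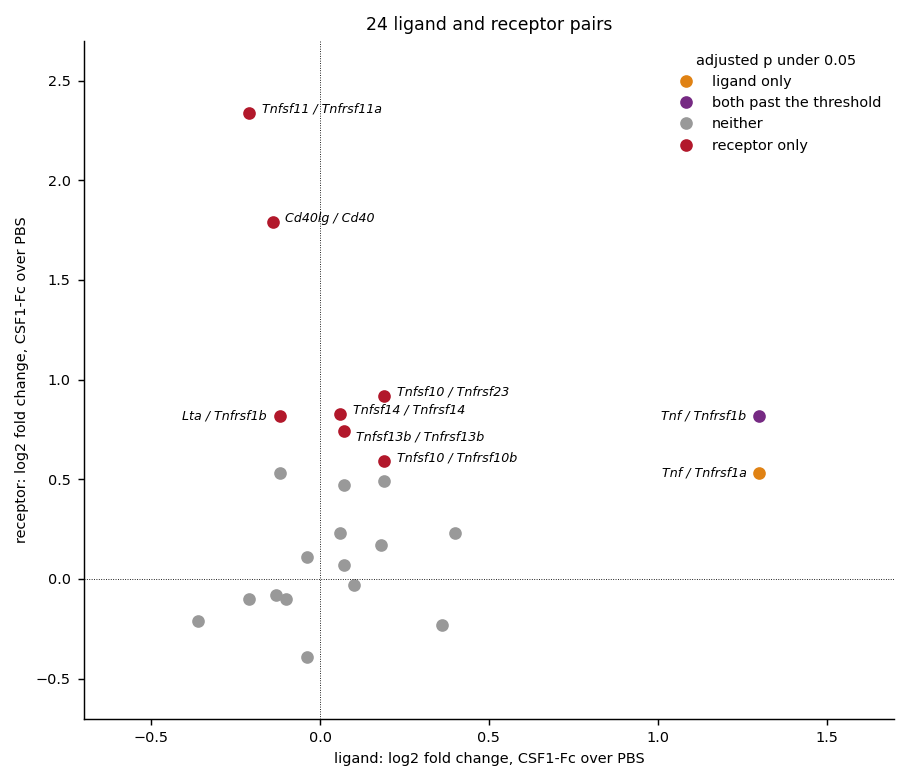
Log2 fold change, CSF1-Fc over PBS, of the ligand (horizontal axis) and the receptor (vertical axis) of 24 pairs, 1 point per pair. Pairs in which only the receptor rose stand along the vertical axis at ligand values between -0.21 and 0.19, and the 2 pairs of *Tnf* are the points far to the right.

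Calls differed between several members that lie next to each other in the genome. In the run *Ltb*, *Tnf*, *Lta* only *Tnf* passed, and *Tnfrsf1b* (0.82) adjoins *Tnfrsf8* (-0.03) on chromosome 4. No member rose in the ligand runs *Tnfsf4*, *Tnfsf18*, *Fasl* on chromosome 1 and *Tnfsf9*, *Cd70*, *Tnfsf14* on chromosome 17. On chromosome 6, *Cd27*, *Ltbr* and *Tnfrsf1a*, with 1 other protein-coding gene between each and the next, gave 0.17, 0.23 and 0.53, none of which passed.

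Downstream of the receptors, few adaptors and kinases rose. Of 30 such genes measured (of 35 listed), 2 rose (6.67%) and 0 fell, beside 8.34% and 3.95% of all genes. Over genes at 5 or more in a group, the shares were 13.7% higher and 6.53% lower, and only 2 of the 30 were dim in both groups. The median difference of the 30 was -0.04 (6 higher and 3 lower at an unadjusted p under 0.05). *Ripk3*, the kinase that starts necroptosis below TNF receptors, measured 7.85, 7.61 and 7.86 in the CSF1-Fc livers, against 5.16 and 5.51 in the PBS livers, and rose by 2.44 (SE 0.17, adjusted p = 0.000485). *Mlkl*, the pore-forming protein that it phosphorylates, measured 8.27, 8.25 and 8.12 in the CSF1-Fc livers and 6.62 and 6.42 in the PBS livers, and rose by 1.69 (SE 0.14, adjusted p = 0.000774). The TRAF adaptors that were measured, *Tradd*, *Fadd* and *Casp8* did not pass.

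Among NF-kappaB subunits, inhibitors and targets, 4 of 27 measured genes (of 32 listed) rose (14.8%) and 1 fell (3.7%), with a median difference of 0.25; over all genes 8.34% rose and 3.95% fell, and over genes at 5 or more in a group 13.7% and 6.53%. The 4 were *Tnfaip8* (2.71, SE 0.17, adjusted p = 0.00045), *Tnfaip8l2* (2.53, SE 0.17, 0.000465), *Vcam1* (1.55, SE 0.21, 0.00705) and *Icam1* (1.05, SE 0.15, 0.00963). *Tnfaip8l2* is a restraint on immune signalling in myeloid and T cells, and *Vcam1* and *Icam1* are adhesion molecules of endothelium and macrophages; no NF-kappaB subunit or I-kappaB inhibitor that was measured passed. *Sod2*, a mitochondrial superoxide dismutase, measured 10.76, 10.69 and 10.75 in the CSF1-Fc livers, against 11.27 and 11.28 in the PBS livers, and fell by 0.54 (SE 0.12, adjusted p = 0.042). The *Sod2* call was lost without any 1 of the 5 mice, at adjusted p-values between 0.0573 and 0.252, and that of *Icam1* without PBS mouse 1 (0.0648) or PBS mouse 2 (0.0955).

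The sheddases that release TNF and its receptors from the cell surface rose. In the list of processing proteases and relatives outside the symbol rule, 4 of 14 measured genes (of 16 listed) were higher (28.6%, beside 8.34% of all genes) and 0 lower, with a median difference of 0.18 (6 higher and 2 lower at an unadjusted p under 0.05). *Adam17*, the TNF-converting enzyme, measured 8.76, 8.39 and 8.86 in the CSF1-Fc livers, against 7.45 and 7.64 in the PBS livers, and rose by 1.13 (SE 0.18, adjusted p = 0.0141). *Rhbdf2*, which brings ADAM17 to the surface of immune cells, measured 8.25, 7.92 and 8.03 in the CSF1-Fc livers and 7.30 and 7.36 in the PBS livers, and rose by 0.74 (SE 0.15, adjusted p = 0.03). *Adam10*, a related sheddase, rose by 1.13 (SE 0.16, adjusted p = 0.00934), and *Relt*, a TNF receptor relative of lymphoid tissue, rose by 1.43 (SE 0.16, adjusted p = 0.00286). Without PBS mouse 1 or PBS mouse 2 only *Relt* of the 4 passed: the adjusted p was 0.108 and 0.0769 for *Adam17*, 0.0671 and 0.0868 for *Adam10*, and 0.18 and 0.171 for *Rhbdf2*. Without CSF1-Fc mouse 1, *Adam17* (0.067) and *Rhbdf2* (0.103) were lost.

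**Figure D4:**
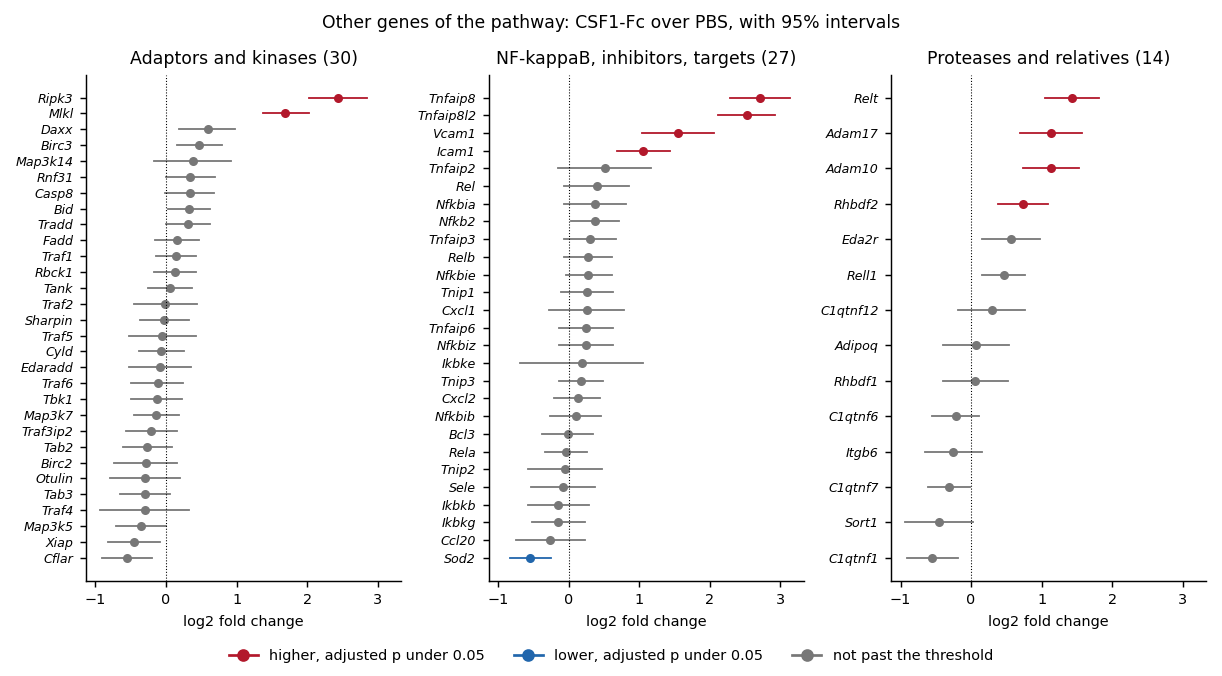
Log2 fold change, CSF1-Fc over PBS (horizontal axis), with 95% intervals, of 30 adaptors and kinases, 27 NF-kappaB subunits, inhibitors and targets, and 14 proteases and relatives. *Ripk3* (2.44), *Mlkl* (1.69), *Tnfaip8* (2.71) and *Tnfaip8l2* (2.53) stand furthest to the right, and *Sod2* (-0.54), in blue, is the only gene of the 3 lists that fell.

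Some cell markers moved in the same livers. Over all genes 8.34% were higher and 3.95% lower, or 13.2% and 14.5% at an unadjusted p under 0.05. Macrophage markers were higher for 13 of 13 measured genes, with a summed intensity of 15500 to 16300 in the CSF1-Fc livers and 3630 to 3730 in the PBS livers. Kupffer cell markers were higher for 7 of 7, summing to 17000 to 17900 in the CSF1-Fc livers and 3780 to 4540 in the PBS livers, and neutrophil markers for 7 of 9, summing to 1370 to 1530 in the CSF1-Fc livers and 200 to 278 in the PBS livers. *S100a8*, *S100a9* and *Ngp* were the brightest of these 9 in the CSF1-Fc livers (means 9.07, 8.17 and 8.14). By the paper, liver histology showed no neutrophil infiltration of the kind that marks tissue damage, while neutrophils rose in the blood. Of NK cell markers 1 of 7 rose (5 higher and 0 lower at an unadjusted p under 0.05), summing to 170 to 239 in the CSF1-Fc livers and 85.7 to 101 in the PBS livers, and of dendritic cell markers 1 of 8 (5 higher and 0 lower at an unadjusted p under 0.05), summing to 361 to 448 in the CSF1-Fc livers and 244 to 252 in the PBS livers. Of sinusoidal endothelial markers 1 of 8 rose (*Cdh5*) and 1 fell (*Clec4g*), with 3 higher and 3 lower at an unadjusted p under 0.05. These 8 summed to 3770 to 4520 in the CSF1-Fc livers and 4140 to 4460 in the PBS livers. Hepatocyte secreted protein genes, which identify the tissue, gave 0 calls of 27 (1 lower at an unadjusted p under 0.05), summing to 160000 to 174000 in the CSF1-Fc livers and 179000 to 181000 in the PBS livers, and cholangiocyte markers 0 of 5 (1 lower at an unadjusted p under 0.05), summing to 145 to 196 in the CSF1-Fc livers and 229 to 232 in the PBS livers. The part of any of these in the values of the family was not tested.

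The 11 calls were not equally firm. *Tnfrsf11a*, *Cd40*, *Tnfrsf21* and *Tnfrsf26* passed in 14 of 15 alternatives each, which is in all but the fit without variance moderation, where their adjusted p-values were 0.0736, 0.0513, 0.0823 and 0.0811. The other 7 members lost the call without either PBS mouse, which leaves that group with 1 liver assumed to vary as the CSF1-Fc livers do. In these 2 fits 4 members rose, beside 5.03% and 4.51% of all genes. Without CSF1-Fc mouse 1, 6 members rose (5.42% of genes), without CSF1-Fc mouse 2, 10 (7.92%), and without CSF1-Fc mouse 3, 11 higher and 2 lower (8.1% and 5.56%). None of the 11 members changed direction under any alternative.

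**Figure D5:**
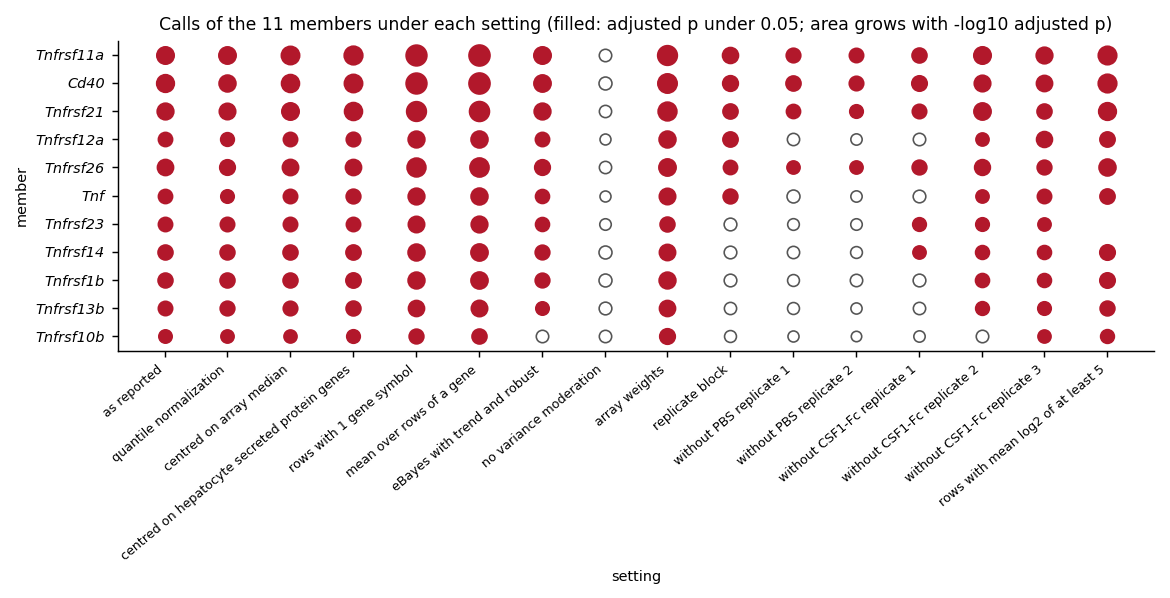
Calls of the 11 members (rows, in order of fold change) as reported and under 15 alternatives (columns); filled points have an adjusted p under 0.05, open points do not, and point area grows with the negative log10 of the adjusted p. The rows of *Tnfrsf11a*, *Cd40*, *Tnfrsf21* and *Tnfrsf26* are filled in every column but the one without variance moderation, and *Tnfrsf23* has no point in the last column because its mean log2 intensity was under 5.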

How the data were processed

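Liver RNA was amplified, labelled with biotin and hybridized to Mouse Gene 1.1 ST arrays. The authors deposited 1 normalized intensity per row and array on a linear scale. The paper names Partek Genomics Suite, and the submitters' notes name Expression Console 1.1; no source used here gives the summarisation, the normalization or the background correction. RNA Bee was the extraction reagent by the paper and Trizol by the labels. Arrays of cultured macrophages were not analysed here. A legend in the paper states n = 3 for the livers, but only 2 PBS arrays were among those analysed here. Groups were taken from the labels, which do not say whether mice shared cages or days. The p-values therefore rest on the spread between these 5 livers, moderated by a variance estimated over all rows.

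The log2 of each intensity was taken with no pseudocount or filter and fitted in limma 3.58.1 (R 4.3.3; lmFit with 1 mean per group, eBayes, 3 residual and 3.34 prior degrees of freedom), with Benjamini-Hochberg adjustment over 35556 rows. The paper names no test for the arrays. Symbols came from the platform annotation: 21218 rows carried 1 symbol, 1881 several and 12457 none. An exact permutation test of 3 livers against 2 cannot go below p = 0.1, so none was used. Array medians were 31.1 to 33 in the CSF1-Fc livers and 32.1 to 32.2 in the PBS livers, and correlations between arrays were 0.983 to 0.99 within CSF1-Fc, 0.991 within PBS and 0.96 to 0.973 between groups. Arrays have no read depth, and their number limits the precision. In a test on simulated data for this comparison (35556 rows), 0 of 67 rows changed by 0.7, 1 of 67 changed by 1 and 35 of 66 changed by 2 log2 units were recovered, with 1 false call. Far fewer rows were changed there than the 1570 genes called higher and 743 called lower in the data. That makes the adjusted threshold stricter in the simulation, so its recovery is not an estimate of recovery in these data.

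Members, pairs and gene lists were chosen with earlier results of these data known. Values in every liver were given for members past the threshold and their partners, and for *Fas*, *Fasl*, *Ltb*, *Ngfr*, *Tnfrsf19* and others chosen after their values were seen; of the other pathway lists, up to 6 genes past the threshold were named, by size of change. Promoters were matched by gene ID to RefSeq (GRCm38.p6). Alternatives were other scalings, row filters, variance models, weighted arrays (statmod 1.5.0), a block for the replicate number, leaving out each mouse and other thresholds.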

Additional observations from a re-analysis of the deposited data

How the results depend on the processing

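With 2 PBS livers, the PBS spread of each gene rests on 1 difference, and in the simulation, with few changed rows, rises of 1 log2 unit or less were rarely recovered. The 11 higher and 0 lower members became 11 and 1 after quantile normalization or centring on the array median. Centring on hepatocyte secreted protein genes gave 12 and 0, beside 8.97% of all genes higher and 2.97% lower. Among the 22 members with a mean log2 intensity of at least 5 over all 5 arrays, the counts were 11 and 1. Of the members that rose as reported, 10 were among these 11. This filter also uses the CSF1-Fc livers: *Cd40*, *Tnfrsf10b*, *Tnfrsf13b* and *Tnfrsf26* had a PBS mean under 5 and were kept through their CSF1-Fc values. Its count is therefore not independent of the difference. The member counts were 13 and 1 over rows with 1 symbol or with the mean over rows, and 10 and 0 with a variance trend. Without variance moderation they were 0 and 0, beside 2.23% of all genes higher and 0.489% lower. Array weights, which gave CSF1-Fc mouse 1 a weight of 4.19, led to 13 and 3, beside 12.3% of all genes higher and 11.9% lower. At an adjusted p under 0.01 the member counts were 4 and 0, and under 0.1 they were 13 and 1. At an unadjusted p under 0.05 they were 14 and 3, beside 13.2% of all genes higher and 14.5% lower. Shares of all genes are not given here for the other settings above. With each mouse left out in turn, 4 to 11 members were higher and 0 to 2 lower. The cause was not tested.

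Deviations from the group mean correlated at -0.07 between the livers numbered 1 and at -0.25 between those numbered 2. With 2 PBS livers, both values rest on the same PBS difference, so they cannot show whether the livers were paired. With the replicate number as a block, 6 members were higher and 0 lower (6.28% and 2.56% of all genes), and the sign turned for *Tnfrsf8* (0.19), *Tnfsf13b* (-0.06) and *Tnfsf4* (0.05). None of the 11 members that passed as reported changed direction; signs turned only among small differences that did not pass. These were *Fasl* (0.05), *Tnfrsf18* (0.01), *Tnfrsf8* (0.06) and *Tnfsf4* (0.01) after quantile normalization, *Fasl* (0.04), *Tnfrsf18* (0), *Tnfrsf8* (0.05) and *Tnfsf4* (0.03) after centring on secreted protein genes, *Tnfrsf8* (0.07) and *Tnfsf15* (0.01) with array weights, and *Tnfsf13b* (-0.07) with the mean over rows. With each mouse left out, the difference ran between -0.35 and 0.07 for *Cd40lg*, -0.13 and 0.05 for *Fasl*, -0.04 and 0.26 for *Tnfrsf4*, -0.19 and 0.19 for *Tnfrsf8*, -0.06 and 0.17 for *Tnfsf13b*, and -0.15 and 0.05 for *Tnfsf4*. The median difference of all genes lay between -0.08 and 0 under every scaling.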
